A study of Mus musculus with 4 samples.

Results

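The genes described here are 7 genes of cellular iron handling: Fth1 and Ftl1, which encode the heavy and light chains of ferritin, the iron storage protein; Tfrc, the transferrin receptor that brings iron into cells; Slc40a1, which encodes ferroportin, the known iron exporter of mammalian cells; Ireb2 and Aco1, which encode the iron regulatory proteins; and Ncoa4, the receptor that delivers ferritin to the lysosome. They were chosen by name, and all 7 were among the 22574 genes of a single-nucleus RNA-seq (snRNA-seq) count matrix of 8585 cardiomyocyte nuclei from neonatal mouse hearts. The 4 libraries, 1 per group, came from mice that all carried loxP-flanked Nrf1 alleles and had myocardial infarction (MI) or Sham surgery at postnatal day 3, with tissue collected the next day. In the libraries labelled KO the mice also carried αMHC-Cre, a Cre under the promoter of alpha myosin heavy chain and so active in cardiomyocytes, whereas the libraries labelled WT came from the loxP mice without it. Each library was made from tissue below the ligation plane pooled from 4 to 6 hearts of 1 genotype on a C57BL/6 background. With 1 library per group no difference could be checked against replicates and no test was possible, and all intervals cover counting error only.

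The libraries labelled WT-Sham, KO-Sham, WT-MI and KO-MI, given in this order wherever 4 values follow each other, held 1406, 3328, 2003 and 1848 nuclei and between 4984625 and 9106522 unique molecular identifiers (UMIs, counts of captured RNA molecules). The median nucleus held between 2572 UMIs, in KO-Sham, and 3959, in KO-MI, and the mitochondrial genome gave a median share of 6.58%, 8.98%, 5.37% and 5.29% of UMIs. Of the nuclei, 18 carried a barcode that occurs in more than 1 library. Nfe2l1, the gene that encodes Nrf1, was measured at 62.2, 50.5, 47.4 and 55.3 CPM (UMIs per 1000000). It was thus lower in the library labelled KO-Sham than in WT-Sham, but higher in the library labelled KO-MI than in WT-MI, with a log2 ratio of 0.22 (95% interval 0.02 to 0.43), which goes against the label. Reads at the 3′ end may lie outside the deleted part of the gene, so this check may say nothing of the deletion, and genotypes are named below as the labels give them. The 7 markers of cardiomyocytes were present in every library and every population, at a summed 32950, 30943, 29791 and 29341 CPM.

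Iron is stored inside the ferritin shell and enters cardiomyocytes mainly as transferrin taken up by its receptor, and ferroportin carries it out. The iron regulatory proteins bind a hairpin, the iron responsive element, in messenger RNAs when iron is scarce. Bound before the coding sequence, as in ferritin and ferroportin messages, they hold back translation, and bound after it, as in the transferrin receptor message, they protect the RNA from decay. RNA counts therefore show only part of this regulation. NCOA4 leads ferritin to breakdown when iron is needed.

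The hairpin sequences are shown to set out which members match the motif of this element and on which side of the coding sequence. A search of the GENCODE M21 transcripts of GRCm38 for a C, 5 bases, the loop CAGTGN and 5 bases able to pair with the first 5 (sense strand, with G-T pairs allowed) matched the untranslated regions of 4 members. The search matched 0.731% of 21877 protein-coding genes in an untranslated region (160 genes), so the motif is uncommon but not limited to iron genes, and a match is a description and not a measured site. Each line gives 27 bases of the transcript strand, 5′ to 3′, with the loop in capitals.
Fth1 5′ UTR: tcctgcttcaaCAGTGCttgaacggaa
Ftl1 5′ UTR: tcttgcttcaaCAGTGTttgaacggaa
Slc40a1 5′ UTR: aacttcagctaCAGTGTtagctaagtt
Tfrc 3′ UTR, match 1: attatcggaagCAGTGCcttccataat
Tfrc 3′ UTR, match 2: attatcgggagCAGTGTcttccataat
Tfrc 3′ UTR, match 3: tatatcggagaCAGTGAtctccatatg
Tfrc 3′ UTR, match 4: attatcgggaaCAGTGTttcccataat

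On GRCm38 these lie at chr19:9982733-9982759 (plus strand) for Fth1, chr7:45459780-45459806 (minus) for Ftl1 and chr1:45925466-45925492 (minus) for Slc40a1. The matches of Tfrc, all on the plus strand, lie at chr16:32631220-32631246, chr16:32631599-32631625, chr16:32631664-32631690 and chr16:32631711-32631737. The ferritin and ferroportin messages thus carried 1 match each, before the coding sequence, and Tfrc carried 4, after it. Elements with another loop or an unpaired base in the stem were not searched for. No match was found in the untranslated regions of Ireb2, Aco1 and Ncoa4, which says only that these letters are not there. The whole genes lie at chr19:9980598-9985098 (Fth1), chr7:45457944-45459884 (Ftl1), chr16:32608920-32632794 (Tfrc), chr1:45908068-45926523 (Slc40a1), chr9:54863789-54912530 (Ireb2), chr4:40143081-40198338 (Aco1) and chr14:32159865-32179855 (Ncoa4). Ftl1 overlaps the predicted genes Gm22133 and Gm10252, neither of which was in the matrix. A search of the annotation for names like those of ferritin pseudogenes gave 5 genes, of which Ftl1-ps1 alone was in the matrix, with 7 UMIs. Fthl17a, a ferritin-like gene outside that search, was in the matrix with 16 UMIs. Their likeness to Fth1 and Ftl1 was not measured, and the counts of both are uncertain to the extent that reads match such a gene. Introns were counted, so a count covers the whole gene, and levels were compared only within a gene.

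**Figure D1:**
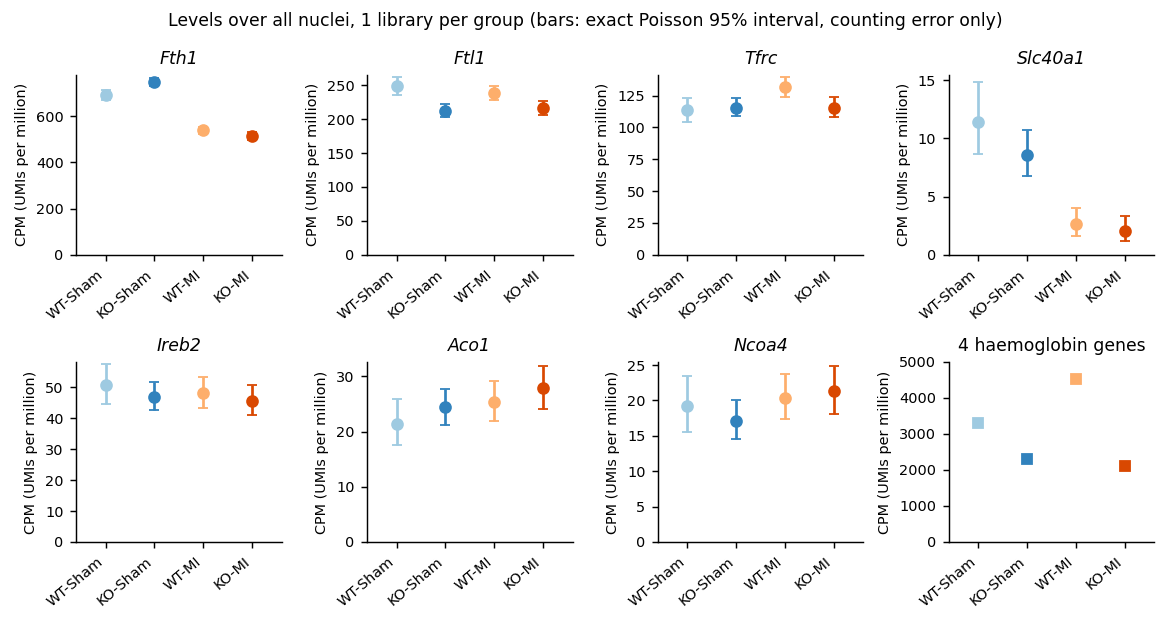
CPM of each gene and of the 4 haemoglobin genes together (y axes, from 0) in the 4 libraries (x axes), over all nuclei; points are the values and bars the exact Poisson 95% intervals, which cover counting error only. Slc40a1 stands at 11.4 and 8.57 CPM in the Sham libraries and at 2.64 and 2.04 CPM in the MI libraries, and Fth1 is also lower in both MI libraries.

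Ferroportin was the member that differed most between the surgeries. Slc40a1 was measured at 11.4 CPM in WT-Sham (95% interval 8.66 to 14.8), 8.57 in KO-Sham (6.77 to 10.7), 2.64 in WT-MI (1.63 to 4.03) and 2.04 in KO-MI (1.14 to 3.36). Both MI libraries lay below both Sham libraries, and no MI interval reached a Sham interval. These levels rest on 57, 78, 21 and 15 UMIs, found in 51, 77, 21 and 15 nuclei, with at most 3 in any nucleus.

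The level of Slc40a1 was 4.33-fold lower in WT-MI than in WT-Sham, a log2 ratio of -2.12 (-2.91 to -1.37), and 4.20-fold lower in KO-MI than in KO-Sham, at -2.07 (-2.98 to -1.26). Of 13415 genes with 20 or more UMIs in the WT libraries 52 (0.388%) had a lower ratio than Slc40a1, and 59 of 13806 (0.427%) did in the KO libraries. Slc40a1 was the member past 1.5-fold in each of these comparisons, 1 of 7, and no member was 1.5-fold or more higher. For comparison, 15.9% of all genes were 1.5-fold or more lower and 12.5% higher in WT-MI than in WT-Sham, and 12.5% were lower and 14.1% higher in KO-MI than in KO-Sham.

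The same difference was found in CM1, the main population, where 43 UMIs in WT-Sham and 13 in WT-MI gave a log2 ratio of -2.21 (-3.23 to -1.29). In the KO libraries 64 UMIs in KO-Sham and 11 in KO-MI gave -2.08 (-3.15 to -1.14). Within CM2, CM4 and CM5 between 0 and 9 UMIs of Slc40a1 were counted per library, too few to compare. Between the genotype labels the intervals of Slc40a1 included no change, with a log2 ratio of -0.37 (-1.43 to 0.65) for KO-MI over WT-MI and -0.42 (-0.93 to 0.10) for KO-Sham over WT-Sham.

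Ferroportin is also abundant in macrophages and in red cell precursors, so the markers of these cells were measured in the same sums. The summed level of 10 myeloid genes was 96.7, 66.3, 177 and 122 CPM, higher in both MI libraries, with 9 of 10 above 0 in the Sham libraries (Cd163 at 0) and 10 of 10 in the MI libraries. The median log2 ratio of the 9 with 20 or more UMIs was 0.94 for WT-MI over WT-Sham and 1.08 for KO-MI over KO-Sham. In the WT libraries Csf1r was lower after MI, at 8.43 CPM in WT-Sham and 7.16 in WT-MI. Haemoglobin (Hba-a1, Hba-a2, Hbb-bs and Hbb-bt) summed to 3290, 2312, 4511 and 2116 CPM. It was higher in WT-MI than in WT-Sham and slightly lower in KO-MI than in KO-Sham. Among the haemoglobin-poor nuclei, which are the 50% of each library with the lowest haemoglobin share of UMIs, the log2 ratio of Slc40a1 was -2.19 for WT-MI over WT-Sham and -2.02 for KO-MI over KO-Sham. The part of macrophage and red cell RNA in the Slc40a1 result was not tested. In these sums fewer nuclei with the RNA and less RNA per nucleus cannot be told apart. With all nuclei thinned to 1000 UMIs (7 shallower nuclei left out) the share with a Slc40a1 UMI was 1.14%, 0.781%, 0.200% and 0.216%, against 3.63%, 2.31%, 1.05% and 0.812% unthinned. Haemoglobin UMIs were present in 96.0% to 99.9% of the nuclei of each library, so RNA from other cells reached nearly all of them, and no population here should lack the 7 genes and serve as a background.

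**Figure D2:**
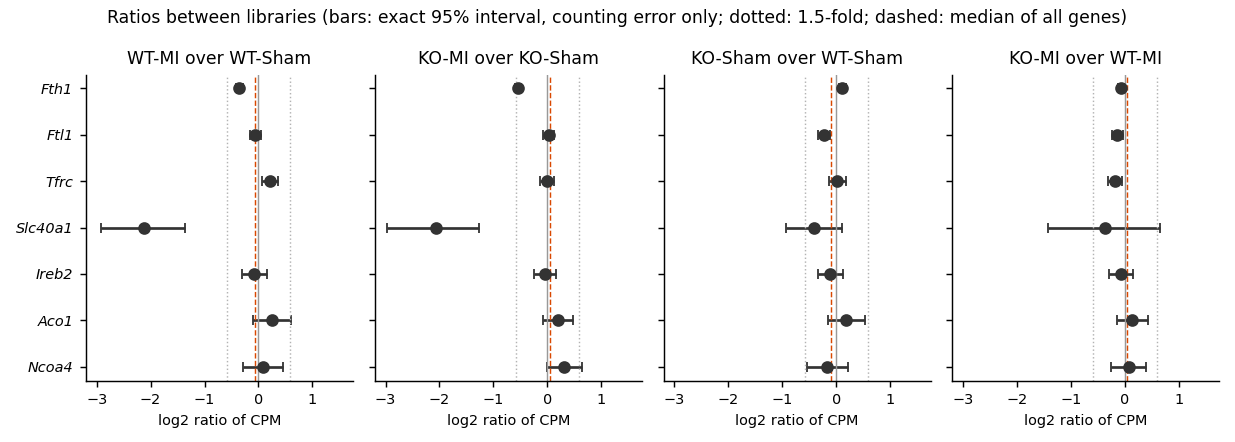
log2 ratio of CPM (x axes) of the 7 genes (y axis) between pairs of libraries over all nuclei, with exact 95% intervals for counting error; the grey line is no change, the dotted lines 1.5-fold and the dashed line the median of all genes. Only Slc40a1 passes 1.5-fold, in both comparisons of MI with Sham, and in the comparisons of the genotype labels all 7 points lie within 1.5-fold.

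The ferritin heavy chain was lower in both MI libraries, by less. Fth1 was measured at 692 CPM in WT-Sham (669 to 716), 750 in KO-Sham (732 to 768), 539 in WT-MI (523 to 556) and 515 in KO-MI (499 to 532). Its log2 ratio was -0.36 (-0.42 to -0.29) for WT-MI over WT-Sham and -0.54 (-0.60 to -0.48) for KO-MI over KO-Sham, beside a median of -0.07 and 0.04 over all genes. In CM1 alone the ratios were -0.23 (-0.31 to -0.15) and -0.58 (-0.65 to -0.51). Over all nuclei both lay short of 1.5-fold, and 27.1% and 13.8% of genes had a lower ratio than Fth1. Under the TMM scaling and in the haemoglobin-poor nuclei the KO ratio lay just past 1.5-fold, at -0.59 and -0.70. The order of the libraries in Fth1 was also their order in the median mitochondrial share of UMIs. Among the mitochondria-poor nuclei, the 50% of each library with the lowest mitochondrial share (an alternative chosen after seeing the data), the log2 ratio was -0.18 for WT-MI over WT-Sham and -0.61 for KO-MI over KO-Sham. The WT ratio was thus nearer to no change in these nuclei and the KO ratio was not.

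The light chain did not follow the heavy chain across the libraries. Ftl1 was measured at 249 CPM (235 to 263), 213 (203 to 223), 239 (228 to 250) and 216 (206 to 227). Its log2 ratio was -0.06 (-0.17 to 0.04) for WT-MI over WT-Sham and 0.02 (-0.07 to 0.12) for KO-MI over KO-Sham, both with an interval that includes no change. Both libraries labelled KO lay below both labelled WT, and their intervals did not overlap.

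Over all nuclei no member reached 1.5-fold between the genotype labels, 0 of 7 in either pair. For KO-MI over WT-MI 3.94% of all genes were 1.5-fold or more higher and 3.68% lower, and for KO-Sham over WT-Sham 5.74% and 5.61%. The median log2 ratio of the 7 genes was -0.08 for KO-MI over WT-MI, beside 0.03 over all genes. For Ftl1 the log2 ratio was -0.14 (-0.24 to -0.04) after MI and -0.23 (-0.33 to -0.12) after Sham. For Fth1 it was -0.067 (-0.13 to -0.003) after MI and 0.12 (0.06 to 0.18) after Sham, in opposite directions.

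The scaling weighs on the Sham pair. The median log2 ratio of all genes was -0.09 there, TMM scaling moves all ratios up by 0.10, and the genes past 1.5-fold change from 768 higher and 750 lower to 1123 higher and 514 lower. Set against the median of all genes, the log2 ratios of KO-Sham over WT-Sham were 0.21 for Fth1, -0.13 for Ftl1, 0.12 for Tfrc, -0.32 for Slc40a1, -0.02 for Ireb2, 0.28 for Aco1 and -0.07 for Ncoa4. No member was past 1.5-fold on that scale either. Among the haemoglobin-poor nuclei of the Sham libraries the log2 ratio of Ftl1 was -0.03, and among their mitochondria-poor nuclei it was -0.06.

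The transferrin receptor was highest in WT-MI. Tfrc was measured at 114 CPM (105 to 124), 116 (109 to 123), 132 (124 to 140) and 116 (108 to 124), and the 3 libraries below WT-MI did not differ beyond their intervals. Its log2 ratio was 0.21 (0.06 to 0.36) for WT-MI over WT-Sham and -0.00 (-0.13 to 0.13) for KO-MI over KO-Sham. For KO-MI over WT-MI it was -0.19 (-0.32 to -0.05) and for KO-Sham over WT-Sham 0.02 (-0.12 to 0.17). The comparisons share libraries, and a single library, WT-MI, sets both values that differ from no change. In CM1 the values were 0.25 (0.08 to 0.42) for WT-MI over WT-Sham and -0.18 (-0.34 to -0.03) for KO-MI over WT-MI. WT-MI also held the most haemoglobin. In WT-MI Tfrc stood at 136 CPM in the haemoglobin-poor nuclei and at 126 CPM in the rest (log2 ratio 0.11, -0.07 to 0.29), and the part of red cell RNA in the result was not tested.

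Over all nuclei the regulators and the ferritin receptor did not differ between libraries beyond counting error. Ireb2, whose protein IRP2 is broken down when iron is plentiful, was measured at 50.8, 47.0, 48.1 and 45.7 CPM. Aco1, whose protein is either a cytosolic aconitase or the regulatory protein IRP1, was measured at 21.5, 24.4, 25.4 and 27.9 CPM. Ncoa4 was measured at 19.3, 17.1, 20.4 and 21.3 CPM. All 12 intervals of the log2 ratios of these genes included no change, the widest being that of Ncoa4 for KO-Sham over WT-Sham (-0.17, -0.54 to 0.21). The nearest to an exception was Ncoa4 for KO-MI over KO-Sham, at 0.32 (-0.01 to 0.65). A difference of 1.5-fold lies outside these intervals, except those of Aco1 for WT-MI over WT-Sham (0.24, -0.10 to 0.59) and of Ncoa4 for KO-MI over KO-Sham.

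**Figure D3:**
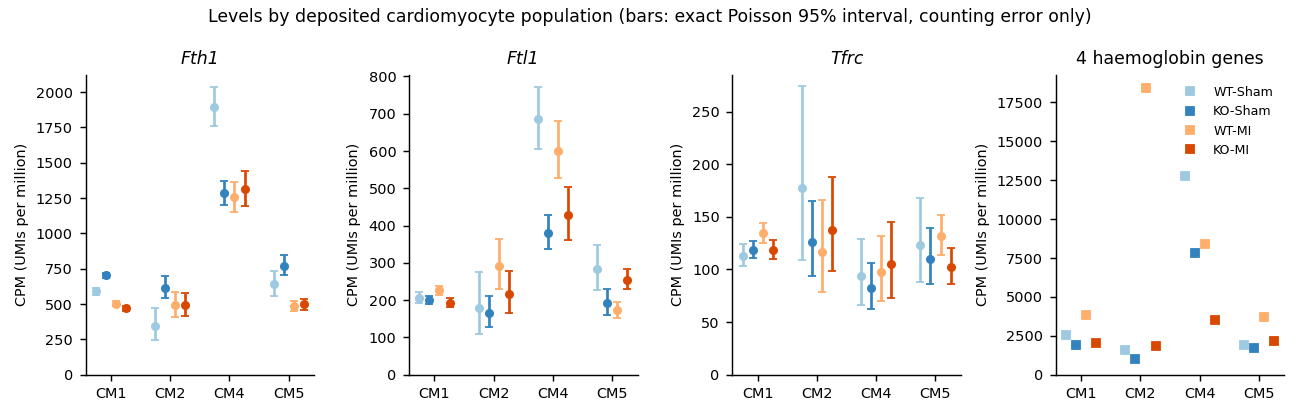
CPM (y axes, from 0) of Fth1, Ftl1, Tfrc and the 4 haemoglobin genes in the populations CM1, CM2, CM4 and CM5 (x axes), with 1 point per library; bars are exact Poisson 95% intervals for counting error. Both ferritin chains are highest in CM4 in every library, Tfrc is lowest in CM4 in 3 libraries, and haemoglobin is highest in CM4 in 3 libraries and in CM2 in WT-MI.

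Among the populations, both ferritin chains were highest in CM4. The deposited labels divide the nuclei into CM1, the main population, CM2, which the study describes as cycling, CM4, described as regenerative, and CM5, described as responsive to injury. They were clustered on these same nuclei, so the differences between them are descriptions. Fth1 was measured in CM4 at 1894, 1284, 1255 and 1312 CPM, and in CM1 at 591, 702, 503 and 470 CPM. The log2 ratio of CM4 over CM1 was 1.68 (1.56 to 1.80), 0.87 (0.77 to 0.97), 1.32 (1.18 to 1.45) and 1.48 (1.33 to 1.63). Ftl1 was measured in CM4 at 685, 381, 600 and 428 CPM, and in CM1 at 207, 201, 227 and 193 CPM, with log2 ratios of 1.73 (1.53 to 1.93), 0.92 (0.73 to 1.11), 1.41 (1.21 to 1.60) and 1.15 (0.89 to 1.40). For both chains CM4 lay above CM1, CM2 and CM5 in each of the 4 libraries, and KO-Sham had the smallest ratio. Between the libraries, Ftl1 in CM4 was lower in KO-Sham than in WT-Sham, with a log2 ratio of -0.85 (-1.10 to -0.60), and in KO-MI than in WT-MI, at -0.49 (-0.79 to -0.19), and Fth1 in CM4 gave -0.56 (-0.70 to -0.42) for KO-Sham over WT-Sham. After MI Fth1 in CM4 stood at 1312 CPM in KO-MI and 1255 in WT-MI. Haemoglobin in CM4, given below, was lower in the KO library of both pairs. That is the order of Ftl1 in both pairs, but of Fth1 after Sham only.

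The median of all genes in CM4 over CM1 was -0.31, -0.09, -0.01 and -0.11, and relative to it Fth1 and Ftl1 were past 1.5-fold in all 4 libraries, 2 of 7 members. On that scale 32.7%, 22.5%, 29.1% and 31.0% of the genes tested were 1.5-fold or more higher, in sums of only 192, 351, 192 and 118 CM4 nuclei. Being 1.5-fold higher in CM4 was thus common among all genes and not particular to ferritin. Of nuclei thinned to 1000 UMIs, 84.5%, 68.1%, 67.0% and 67.8% in CM4 and 40.8%, 51.1%, 39.9% and 38.3% in CM1 held a Fth1 UMI (unthinned, 93.2%, 89.5%, 87.0% and 90.7% against 82.1%, 83.8%, 81.4% and 80.8%).

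CM4 also differed from CM1 in depth, mitochondrial share and markers of other cells. The median CM4 nucleus held 1715.5, 1859, 1852.5 and 2394 UMIs, and its mitochondrial share was 14.6%, 11.6%, 10.8% and 9.47%, against 6.13%, 8.78%, 5.15% and 5.05% in CM1. Haemoglobin stood at 12787, 7815, 8387 and 3532 CPM in CM4 and at 2539, 1886, 3822 and 2019 CPM in CM1. In WT-Sham and KO-Sham 10 nuclei gave 72.8% and 76.5% of the Hbb-bs UMIs of CM4. The 7 endothelial genes summed to between 292 and 435 CPM in CM4 and between 85.0 and 113 in CM1, the 7 fibroblast genes to between 2011 and 2481 against 905 and 1048, and the 10 myeloid genes to between 97.2 and 363 against 63.5 and 172, with 7 of 7, 7 of 7 and 8 or 9 of 10 above 0 in CM4.

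CM4 was also compared with CM1 among the haemoglobin-poor nuclei, a comparison added after seeing the data. Haemoglobin there was 1339, 718, 2685 and 1390 CPM in CM4 and 1214, 712, 2520 and 1314 CPM in CM1. The log2 ratio of Fth1 was 1.81 (1.49 to 2.11), 0.92 (0.74 to 1.08), 1.29 (0.96 to 1.59) and 1.73 (1.42 to 2.03), in 17, 119, 24 and 18 CM4 nuclei. That of Ftl1 was 2.18 (1.68 to 2.65), 1.06 (0.73 to 1.38), 1.62 (1.18 to 2.04) and 1.78 (1.30 to 2.23). With the median of all genes subtracted, Fth1 gave 1.64, 0.997, 1.10 and 1.61 in these nuclei and 1.99, 0.96, 1.33 and 1.59 over all nuclei, and Ftl1 gave 2.02, 1.14, 1.43 and 1.65 against 2.04, 1.01, 1.41 and 1.26. On that scale Fth1 was thus smaller in WT-Sham and WT-MI among the haemoglobin-poor nuclei. The mitochondrial share stayed higher in these CM4 nuclei, at 13.9%, 11.5%, 10.5% and 9.47%. Among the mitochondria-poor nuclei of WT-MI, where the shares were 3.81% in 10 CM4 nuclei and 3.93% in CM1, Fth1 gave 1.42 (0.87 to 1.91) and Ftl1 0.88 (-0.19 to 1.77). With the median of all genes subtracted these were 0.83 (0.29 to 1.33) and 0.29 (-0.77 to 1.18). In KO-Sham the shares came nearer but stayed apart, at 8.13% in 59 CM4 nuclei and 7.23% in CM1. There Fth1 gave 0.97 (0.73 to 1.20) and Ftl1 1.43 (1.04 to 1.81), and with the median subtracted 0.92 and 1.38. WT-Sham and KO-MI held only 3 mitochondria-poor CM4 nuclei each, and their shares stayed apart too. The part of the mitochondrial share and of the other cell types' RNA in the result was not tested.

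**Figure D4:**
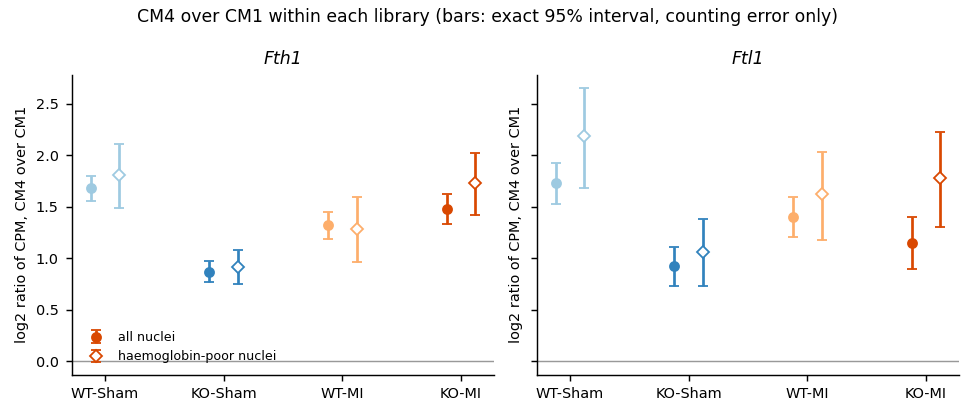
log2 ratio of CPM of CM4 over CM1 (y axes) for Fth1 and Ftl1 in each library (x axes), over all nuclei (filled circles) and in its haemoglobin-poor nuclei (open diamonds), with exact 95% intervals for counting error. Each open value overlaps or exceeds its filled value, from 0.87 and 0.92 in KO-Sham for Fth1 to 1.73 and 2.18 in WT-Sham for Ftl1.

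The transferrin receptor did not share this pattern. Tfrc was measured in CM4 at 93.6, 82.1, 97.3 and 105 CPM and in CM1 at 113, 119, 135 and 119 CPM, with log2 ratios of -0.28 (-0.80 to 0.21), -0.53 (-0.94 to -0.16), -0.47 (-0.96 to -0.02) and -0.18 (-0.71 to 0.31). CM4 was lower in 4 of 4 libraries, in 2 of them beyond counting error, but with the median of all genes subtracted the WT-Sham value was 0.03. Ireb2, Aco1 and Ncoa4 rested on 1 to 22 UMIs per library in CM4, too few to say whether they shared it. Aco1 had 1 UMI in CM4 of WT-Sham and 10 to 14 in the other 3 libraries.

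In CM2 of the MI libraries Fth1 was near CM1, at 493 and 493 CPM. Ftl1 there was 291 CPM (229 to 365) in WT-MI and 217 (167 to 278) in KO-MI, against 227 (215 to 239) and 193 (181 to 205) in CM1. In WT-MI 10 nuclei gave 66.7% of the 75 Ftl1 UMIs of CM2. In the Sham libraries Fth1 stood at 347 and 614 CPM in CM2, with log2 ratios over CM1 of -0.77 (-1.26 to -0.31) and -0.19 (-0.38 to -0.01). CM2 held 27, 124, 57 and 67 nuclei. Haemoglobin in CM2 of WT-MI was 18428 CPM against 3822 in CM1, with 86.4% of its Hbb-bs UMIs in 10 nuclei, while Fth1 in that sum was not higher than in CM1 (-0.03, -0.30 to 0.23).

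In CM5, the population that made up 6.33% and 7.03% of the nuclei in the Sham libraries and 16.9% and 19.2% in the MI libraries, Fth1 followed CM1, at 643, 773, 486 and 497 CPM. Ftl1 did not, with 283 CPM in WT-Sham (228 to 347), 192 in KO-Sham (159 to 229), 173 in WT-MI (152 to 195) and 255 in KO-MI (229 to 283). WT-Sham and KO-MI were thus alike and above the other two, which overlapped. KO over WT gave a log2 ratio of -0.56 (-0.96 to -0.15) after Sham and 0.56 (0.33 to 0.80) after MI. In WT-Sham 10 of 89 nuclei gave 44.6% of the 92 UMIs. Ireb2 in CM5 was 67.6, 22.0, 48.1 and 59.1 CPM, lowest in KO-Sham with 14 UMIs, and KO-Sham over WT-Sham gave -1.62 (-2.70 to -0.59) and KO-MI over KO-Sham 1.42 (0.60 to 2.36), both beyond counting error. Ncoa4 in CM5 was 21.5, 15.7, 18.3 and 32.1 CPM, and that of KO-MI rested on 45 UMIs, with a log2 ratio over WT-MI of 0.81 (0.09 to 1.56). In CM2, Fth1 gave 0.83 (0.33 to 1.35) for KO-Sham over WT-Sham, from 39 UMIs in WT-Sham, and Ireb2 gave -1.32 (-2.64 to -0.12) for KO-MI over WT-MI, from 9 and 20 UMIs.

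Within a library both ferritin chains followed haemoglobin and the mitochondrial share. Fth1 in the haemoglobin-poor nuclei was 553, 703, 466 and 434 CPM and in the rest 879, 803, 639 and 619 CPM, with log2 ratios of -0.67, -0.19, -0.45 and -0.51. Ftl1 was 190, 186, 206 and 196 CPM against 328, 244, 283 and 242 CPM. All 8 intervals excluded no change, and the same held for nuclei divided by mitochondrial share. Tfrc was 110, 120, 136 and 114 CPM in the haemoglobin-poor nuclei and 119, 111, 126 and 117 CPM in the others, and its 4 intervals included no change. For Slc40a1, Ireb2, Aco1 and Ncoa4 all 16 such intervals for haemoglobin included no change. For nuclei divided by mitochondrial share 2 of the 20 intervals of these 5 genes excluded it, the mitochondria-poor nuclei over the rest giving 0.21 (0.03 to 0.39) for Tfrc in WT-MI and -0.70 (-1.40 to -0.02) for Slc40a1 in KO-Sham. These nuclei differed in depth too: the haemoglobin-poor nuclei held a median of 4069, 2708.5, 4616 and 4494.5 UMIs and the others 3006, 2414.5, 3386.5 and 3462.5. CM4, where both ferritin chains were highest, was unevenly divided as well. Of its 192, 351, 192 and 118 nuclei, 17, 119, 24 and 18 were haemoglobin-poor, and 3, 59, 10 and 3 were mitochondria-poor. The part of CM4 in these ratios was not tested.

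Over the 16 sums of library and population the genes most like a member were found by Pearson's r of log2 CPM among 3731 genes with 5 or more UMIs in every sum. These sums share libraries and depth, and the values are descriptions. Fth1 was most like Rpl10 (r = 0.98), a ribosomal protein gene, Prdx5 (0.98), which encodes a peroxiredoxin, and Rps9 (0.97), another ribosomal protein gene. Ftl1 was most like Ctsd (0.94), which encodes the lysosomal protease cathepsin D, Tmsb4x (0.93) and Psap (0.93). Tfrc was most like Armc8 (0.92), Ppp6r2 (0.90) and Smad3 (0.90), and Ireb2 most like Eif4enif1 (0.79), Yap1 (0.79) and Slc30a5 (0.78). Slc40a1, Aco1 and Ncoa4 had fewer than 5 UMIs in some sum. Between members r was 0.85 for Fth1 and Ftl1, -0.80 for Fth1 and Tfrc and -0.69 for Ftl1 and Tfrc.

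**Figure D5:**
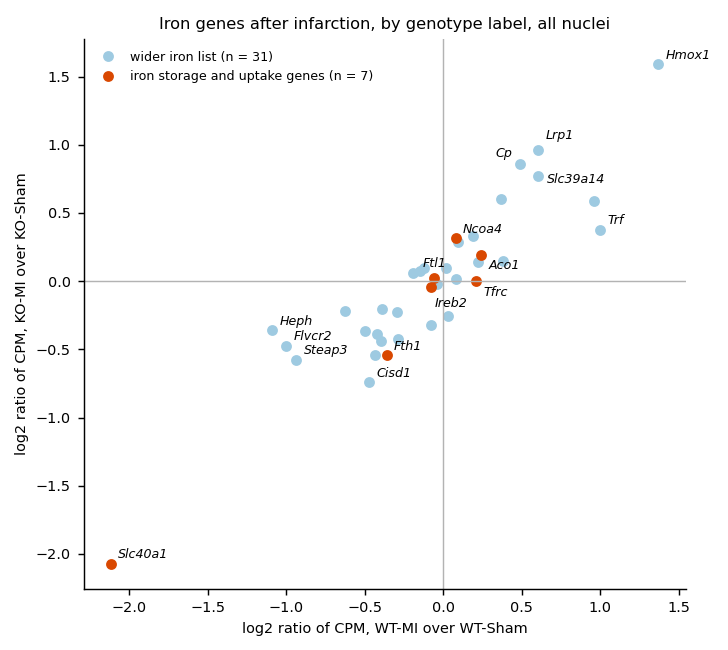
log2 ratio of CPM for WT-MI over WT-Sham (x axis) and KO-MI over KO-Sham (y axis), over all nuclei, of the 7 genes (orange) and of 31 other iron genes with 20 or more UMIs (blue); named points are members and genes picked by the naming rule. Slc40a1 lies at -2.12 and -2.07, and Hmox1 at the other end, at 1.37 and 1.59.

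The wider iron list held 36 genes of iron and haem transport, haem synthesis and breakdown and iron-sulfur cluster assembly, of which 34 were in the matrix and 31 had 20 or more UMIs in each comparison. In WT-MI 5 of 31 were 1.5-fold or more higher and 4 lower than in WT-Sham, and in KO-MI 6 were higher and 1 lower than in KO-Sham, against the shares of all genes given above. The medians were -0.08 and 0.02. The largest ratio was that of Hmox1, haem oxygenase, which frees iron from haem, at 8.02, 4.06, 20.7 and 12.2 CPM. Its log2 ratio was 1.37 (0.86 to 1.91) for WT-MI over WT-Sham and 1.59 (1.02 to 2.18) for KO-MI over KO-Sham. Hmox1 was lower in the libraries labelled KO in both pairs, at -0.98 (-1.67 to -0.30) after Sham and -0.76 (-1.15 to -0.38) after MI. The Sham value rests on 40 UMIs in WT-Sham and 37 in KO-Sham. In WT-Sham 10 nuclei held 57.5% of these UMIs, and 1 nucleus held 10 of them, so this value depends on few nuclei. Hmox1 is expressed in macrophages too, and the myeloid list was lower in the libraries labelled KO in both pairs. The part of macrophage RNA in the Hmox1 result was not tested.

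The other genes named had the largest ratios of the list, at most 5 in a comparison. In the WT libraries Trf, transferrin, was higher after MI, with 5.22 CPM in WT-Sham and 10.4 in WT-MI (interval of the log2 ratio 0.35 to 1.70). Heph, a ferroxidase that works with ferroportin, was lower, with 21.7 CPM in WT-Sham and 10.2 in WT-MI (-1.09, -1.52 to -0.66), as were Flvcr2, a haem or choline transporter, with 32.7 CPM in WT-Sham and 16.3 in WT-MI (-1.34 to -0.66), and Steap3, which reduces iron taken up with transferrin (-0.94, -1.22 to -0.65). In the KO libraries Lrp1, a receptor for the haem carrier haemopexin (0.96, 0.52 to 1.41), Cp, the ferroxidase ceruloplasmin (0.86, 0.51 to 1.21), and Slc39a14, a zinc and iron importer (0.77, 0.60 to 0.94), were higher after MI, and Cisd1, an iron-sulfur protein of the outer mitochondrial membrane, was lower (-0.74, -0.87 to -0.62). With 1 library per group the difference between the genotypes could not be tested, and each of these genes had the same sign in both. Lrp1 and Slc39a14 were past 1.5-fold in the WT libraries too, where the limit of 5 names left them out. Lrp1 stood at 9.83 CPM in WT-Sham and 15.0 in WT-MI, and Slc39a14 at 68.8 and 105 CPM.

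Between the genotype labels, 1 of 31 was 1.5-fold or more higher and 2 lower for KO-MI over WT-MI, and 2 higher and 1 lower for KO-Sham over WT-Sham, beside 3.94% and 3.68%, and 5.74% and 5.61%, of all genes. The named ones were Heph (0.61, 0.18 to 1.03), Trf (-0.87, -1.44 to -0.32) and Hmox1 after MI, and Cisd1 (0.66, 0.52 to 0.80) and Hmox1 after Sham. Hpx, haemopexin, had no UMI in any library, and Hamp and Tfr2 had at most 2.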

How the data were processed

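The authors deposited 1 matrix of UMI counts per gene and nucleus, with no normalization, and 1 line per nucleus with its library, population label and the percent of its UMIs from the mitochondrial genome. Cell Ranger, of a version not given in the sources used here, was run per the study's methods on an mm10/GRCm38 pre-mRNA reference, so intronic reads were counted. Doublets called by Scrublet, nuclei with few or many detected genes and clusters other than cardiomyocytes had been removed before deposit, and no doublet caller was run again; nuclei held 537 to 2499 genes. Because introns and RNA from other cells enter the counts, a level is neither that of mature RNA nor of cardiomyocytes alone. The labels and the methods name different versions of the 10x kit. Of the deposited columns per nucleus, 11 were not used.

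Groups came from the sample titles. Summed UMIs of each library, and of each population within it, were given as CPM with exact Poisson 95% intervals. Ratios have exact conditional binomial intervals, and shares of nuclei Clopper-Pearson intervals. With 1 library per group no test or p-value was computed. Called means 1.5-fold or more, among genes that had 20 UMIs or more in the 2 sums together. A gene at 0 UMIs would be set at 3 UMIs for a ratio, and no ratio is given where both sums held 3 UMIs or fewer. Members and lists were chosen with earlier results of these data known. Named are the 7 members, Nfe2l1, the haemoglobin genes and the 3 genes most like each member. In each comparison at most 5 genes of the wider iron list are also named. These were past 1.5-fold, with 50 or more UMIs and an interval that excludes no change. Hpx, Hamp, Tfr2, Ftl1-ps1, Fthl17a and marker genes at 0 were named after their values were seen. Alternatives were other scalings (TMM of edgeR 4.0.16, median ratio, totals without mitochondrial and haemoglobin UMIs), thinning to 1000 UMIs, means over nuclei, equal population shares, nuclei poor in haemoglobin and, for the populations, the transferred label. A summed list of further red cell markers is not reported here. Of the steps, only the intervals of the ratios were tested on simulated data, drawn with counting error alone. Python 3.11.15, numpy 2.4.6, scipy 1.17.1, pandas 2.3.3 and R 4.3.3 were used. GENCODE M21 held 98.05% of the symbols; the annotation release and the use of strand in counting are not given in the sources used here.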

Additional observations from a re-analysis of the deposited data

Results flagged for a closer look

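In 2 cases the difference between the genotype labels ran one way after MI and the other way after Sham, each with an interval that excluded no change. With 1 library per group the difference between the contrasts was not tested. For Fth1 KO over WT gave a log2 ratio of -0.067 after MI and 0.12 after Sham over all nuclei, and -0.10 after MI and 0.25 after Sham in CM1. The library labelled KO-Sham also had the highest median mitochondrial share, 8.98%, and the lowest median depth, 2572 UMIs, and Fth1 was higher in the nuclei with more mitochondrial RNA in every library. Those nuclei also held most of the CM4 nuclei, the population with the highest Fth1. For KO-Sham over WT-Sham Fth1 gave 0.35 among the mitochondria-poor nuclei, 0.35 among the haemoglobin-poor nuclei and 0.016 as the mean of single nuclei.

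For Ftl1 in CM5 KO over WT gave 0.56 after MI and -0.56 after Sham. Set the other way, MI over Sham was -0.71 in the libraries labelled WT and 0.41 in those labelled KO. These sums hold 92, 122, 255 and 358 UMIs in WT-Sham, KO-Sham, WT-MI and KO-MI, and the CM5 of KO-MI held 15 Ftl1 UMIs in 1 nucleus. Haemoglobin in the same sums was 1916, 1714, 3685 and 2188 CPM and the myeloid genes 111, 67.7, 151 and 123 CPM, neither in the order of Ftl1.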

How the results depend on the processing

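No paired analysis was possible because each group had 1 library and no fit was made. For the same reason leaving out a replicate could not be tried. The number of members past 1.5-fold was 0 of 7 for KO-MI over WT-MI. Among the mitochondria-poor nuclei Slc40a1 passed 1.5-fold in that pair, but on 10 UMIs in WT-MI and 5 in KO-MI. These are fewer than the 20 UMIs needed for a call. For KO-Sham over WT-Sham the number was 0, and 1 (Slc40a1) among the haemoglobin-poor and among the mitochondria-poor nuclei. For KO-MI over KO-Sham it was 1, and 2 (Slc40a1 and Fth1) under the median ratio, under TMM, with totals without mitochondrial and haemoglobin UMIs, and among both kinds of nuclei. For WT-MI over WT-Sham it stayed 1. Of 224 alternative values of the member ratios between libraries, 203 moved by less than the counting interval and 21 by more, and 24, in 12 of the ratios, had the opposite sign. For Slc40a1 in MI over Sham they stayed between -2.52 and -1.85. The largest shift, 0.49, came from thinning to 1000 UMIs. With genes counted in both libraries as the background, without the minimum of 20 UMIs, the share past 1.5-fold changed from 7.62% to 19.5% for KO-MI over WT-MI and from 11.4% to 23.5% for KO-Sham over WT-Sham. With the transferred in place of the deposited population label, the mean log2 ratio of CM4 over CM1 in the 4 libraries was 1.32 (deposited 1.34) for Fth1 and 1.52 (1.30) for Ftl1. That of CM5 over CM1 was -0.13 (deposited 0.07) for Fth1 and 0.12 (-0.06) for Tfrc. The labels divide CM2 and CM5 differently. In WT-MI the transferred label gave 297 nuclei to CM2 and 33 to CM5, and the deposited label 57 and 339. Nuclei without a haemoglobin UMI could not be compared, since only 3, 133, 2 and 4 were found in WT-Sham, KO-Sham, WT-MI and KO-MI. Depth limits Slc40a1, with 15 to 78 UMIs per library, and Ireb2, Aco1, Ncoa4 and Slc40a1 within CM2, CM4 and CM5.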

Other observations

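Other markers of red cells moved unevenly. In CM4, 10 nuclei held 72.8% of the Hbb-bs UMIs of WT-Sham and 76.5% of those of KO-Sham, but 28.8% and 23.0% of those of WT-MI and KO-MI, and a single nucleus held 1206 in WT-Sham and 715 in KO-Sham. In CM2 of WT-MI a single nucleus held 1724. The 3 nuclei of CM4 among the mitochondria-poor nuclei of WT-Sham had 248625 CPM of haemoglobin. Alas2, the haem synthesis gene of red cells, was counted 34, 55, 71 and 45 times in WT-Sham, KO-Sham, WT-MI and KO-MI.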
